A study of Mus musculus with 6 samples.

Results

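The genes described here encode the mitochondrial respiratory chain and the ATP synthase it drives, in mouse acute myeloid leukaemia cells. A gene was included if its symbol begins with Nduf, Uqcr, Atp5 or with Cox and a digit, or is Sdha, Sdhb, Sdhc, Sdhd, Cycs or Cyc1, and is not marked as a pseudogene by -ps. This gave 102 of the 30142 genes measured on the arrays. They comprise 36 subunit genes of complex I, 8 complex I assembly factors, 4 genes of complex II, 9 of complex III, Cycs, 20 subunit genes of complex IV, 7 complex IV assembly factors and 17 genes of complex V. Ndufa4 and its paralog Ndufa4l2 were counted with complex IV, where the Ndufa4 protein is found. Atp5c1 and Ndufb1, and Cox14, Cox16, Ndufa11 and Ndufb4, which share their rows with other symbols, were not analysed here. Atp5l2 is named in the array annotation without a gene identifier, and no gene type was found for it in the reference used here. Ndufa11b is a transcribed pseudogene in RefSeq, and the rows of Ndufb4b and Ndufb4c may also take signal from near-identical copies.

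Total RNA came from bone marrow leukaemia cells, sorted by flow cytometry once recipients had reached end-stage leukaemia. All 6 samples carry leukaemia induced by MLL-AF9, a fusion oncogene. There were 3 Dnmt3b-KO samples, lacking the DNA methyltransferase gene Dnmt3b, and 3 littermate control samples, each on an Affymetrix array. The age and sex of the mice, the sorting markers, the deleted exons of Dnmt3b and whether each array is a separate mouse are not stated in the sources used here. The p-values therefore reflect only how these samples varied, and that variation may be technical. Values are log2 signals normalized by RMA, and differences are given in these log2 units. Signals of different genes are not compared, because each row has its own probes.

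Respiration passes electrons from NADH through complex I, or from succinate through complex II, to ubiquinone, on to complex III, to the small carrier cytochrome c, and to oxygen at complex IV. Complexes I, III and IV pump protons, and complex V, the ATP synthase, uses the gradient to make ATP. Complex II is made wholly from nuclear genes and also works in the tricarboxylic acid cycle. The other complexes mix nuclear products with a few proteins of mitochondrial DNA, for which no row with its own symbol was analysed here. Leukaemic stem cells are known for their reliance on oxidative phosphorylation. Nuclear respiratory factor 1 (NRF1), the ETS family factor GABPA and YY1 are known activators of these genes.

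A RefSeq promoter window, 250 bases before to 50 after the first listed start (GRCm38.p6), was matched for 80 of the 102 genes. Searched on both strands, the NRF1 motif GCGCATGC was in 12 of these 80 windows (15%), against 2.8% of all 27025 promoters. CCGGAAG, an ETS motif, was in 21 (26.2%), against 9.1%. AAGATGGC, a YY1 motif, was in 12 (15%), against 2.9%. The last 3 letters of the ETS motif are the first 3 of the YY1 motif, so matches can overlap, and each motif was counted by itself. Member promoters are rich in CG, with a median of 20 CG dinucleotides per window against 7 over all promoters. Among promoters with at least 15 CG dinucleotides, the shares were 17.7% of members against 6.3% of all for NRF1, 30.6% against 19% for ETS and 14.5% against 4.9% for YY1. These matches describe the letters and are no evidence of binding.

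Cycs and Sdhb are shown because Cycs had the lowest difference of the members over all 6 arrays and Sdhb belongs to the complex that stood higher on Dnmt3b-KO replicate 3. Capitals mark the NRF1 motif in both and the ETS motif in Sdhb. The Cycs window is chr6:50566520-50566819 on the minus strand and the Sdhb window chr4:140961021-140961320 on the plus strand, both written 5′ to 3′.
Cycs: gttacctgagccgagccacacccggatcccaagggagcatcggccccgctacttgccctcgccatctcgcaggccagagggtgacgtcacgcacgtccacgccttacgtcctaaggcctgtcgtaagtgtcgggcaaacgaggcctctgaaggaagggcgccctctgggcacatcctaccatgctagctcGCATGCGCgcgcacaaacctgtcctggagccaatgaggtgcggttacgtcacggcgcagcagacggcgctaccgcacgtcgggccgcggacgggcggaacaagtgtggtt
Sdhb: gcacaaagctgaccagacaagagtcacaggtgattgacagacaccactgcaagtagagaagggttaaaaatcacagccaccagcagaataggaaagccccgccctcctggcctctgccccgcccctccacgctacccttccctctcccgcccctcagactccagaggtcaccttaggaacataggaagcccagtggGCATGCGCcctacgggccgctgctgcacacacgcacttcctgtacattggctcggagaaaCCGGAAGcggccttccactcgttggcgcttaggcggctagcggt

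Cox6b2 and Cox7b2 are shown because they had the smallest unadjusted p without Dnmt3b-KO replicate 3, beside Cox6b1, the somatic paralog of Cox6b2. Capitals mark CG dinucleotides, the substrate of DNA methyltransferases; methylation itself was not measured. Cox6b1 has 17 CG dinucleotides, Cox6b2 and Cox7b2 have 10 each, and Cox7b, the somatic paralog of Cox7b2, has 5, so the isoform pairs differ in opposite directions. The windows are chr7:30626065-30626364 for Cox6b1, chr7:4753045-4753344 for Cox6b2 and chr5:71548156-71548455 for Cox7b2, all on the minus strand.
Cox6b1: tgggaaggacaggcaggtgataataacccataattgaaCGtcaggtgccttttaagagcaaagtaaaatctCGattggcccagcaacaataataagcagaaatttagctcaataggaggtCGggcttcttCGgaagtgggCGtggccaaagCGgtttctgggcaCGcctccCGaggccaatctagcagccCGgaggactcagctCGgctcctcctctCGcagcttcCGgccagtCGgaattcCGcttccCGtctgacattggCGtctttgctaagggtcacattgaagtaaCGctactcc
Cox6b2: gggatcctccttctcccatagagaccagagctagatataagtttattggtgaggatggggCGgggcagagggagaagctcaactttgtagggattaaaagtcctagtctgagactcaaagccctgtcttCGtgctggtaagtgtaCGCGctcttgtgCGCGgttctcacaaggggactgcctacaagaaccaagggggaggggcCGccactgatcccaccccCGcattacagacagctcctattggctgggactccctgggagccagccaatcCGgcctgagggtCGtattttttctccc
Cox7b2: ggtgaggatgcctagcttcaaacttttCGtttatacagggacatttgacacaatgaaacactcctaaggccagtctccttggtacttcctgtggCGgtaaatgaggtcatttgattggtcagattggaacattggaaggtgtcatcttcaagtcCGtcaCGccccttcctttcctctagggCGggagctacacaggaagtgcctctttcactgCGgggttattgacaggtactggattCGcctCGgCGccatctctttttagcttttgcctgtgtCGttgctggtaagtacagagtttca

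Across the series, Dnmt3b-KO replicate 3 stands apart from the other 5 arrays. Its correlation across genes with each of them was 0.981 to 0.982, whereas the other 5 correlated among themselves at 0.998 to 0.999. The 15 monocyte and macrophage markers averaged 10.54 on it, with 7.27 and 7.07 on Dnmt3b-KO replicates 1 and 2, against 7.06 to 7.27 in control, and 14 of the 15 were higher on it than the mean of replicates 1 and 2. Mrc1 and Gpnmb, at 12.05 and 16.16 on that array, measured at most 4.63 and 5.55 on the others. Averaged over 6 arrays, C1qa, C1qc and Mertk lay below the median gene, but they measured 4.84, 5.75 and 5.10 on replicate 3. Ccr2 went the other way, at 7.13 on replicate 3, with 8.23 and 8.10 on replicates 1 and 2, against 8.23 to 8.60 in control. Apoe was only 0.05 higher on replicate 3 than the mean of replicates 1 and 2 and lay below every control. The 9 measured G2/M genes averaged 11.69 on replicate 3, with 12.41 on both other Dnmt3b-KO arrays, against 12.36 to 12.48 in control. The 6 measured erythroid markers averaged 5.75, 5.66 and 5.64 in Dnmt3b-KO, against 6.17, 6.14 and 5.93 in control, with 0 past the threshold (limma) and Klf1, Gata1 and Epor below the median gene. Alas2 and Slc4a1 had the lowest differences without replicate 3, at -1.15 and -1.04, while Tfrc went the other way, at 0.26. The part of these lists in the values below was not tested. Dnmt3b measured 6.47, 6.63 and 5.96 in Dnmt3b-KO, against 6.76, 6.83 and 6.78 in control. The values did not overlap, but the difference did not pass over 6 arrays (-0.44 ± 0.17, limma, adjusted p = 0.78) or without replicate 3 (-0.24 ± 0.07, adjusted p = 0.16); which exons its probes cover is not stated. All 7 measured leukaemia and myeloid markers, Hoxa10, Meis1, Ptprc, Kit, Itgam, Mpo and Ly6c2, lay above the median gene of 4.79, and their mean was 13.53, 13.47 and 12.94 in Dnmt3b-KO, against 13.31 to 13.33 in control. That mean joins opposite differences of replicate 3 from replicates 1 and 2, at -1.81 for Meis1 and -1.70 for Kit but 1.49 for Itgam and 0.89 for Ptprc. Without replicate 3, Meis1 rose by 0.65 (limma, adjusted p = 0.011), Ly6c2 fell by 0.38 (adjusted p = 0.050, under the threshold before rounding) and, of the G2/M genes, Aurka fell by 0.33 (adjusted p = 0.047). Each comparison is therefore given over 6 arrays and without Dnmt3b-KO replicate 3.

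Between Dnmt3b-KO and control, 0 respiratory chain genes passed the threshold in either fit, and more of their differences lay below 0 than above. Over 6 arrays, 0 of the 102 genes passed an adjusted p of 0.05 (limma, Benjamini-Hochberg over all genes; smallest adjusted p = 0.65), where the background was 0% of all genes. At an unadjusted p under 0.05, 7 members differed, 1 higher and 6 lower, which is 6.86% of members against a background of 6.37% (3.58% lower). Among genes above the median gene, where 97 of the 102 members lie, the background was 9.25% (5.56% lower). Without Dnmt3b-KO replicate 3, 0 of 102 passed again, against 1.69% of all genes (509 genes, 283 higher and 226 lower) and 3.26% of genes above the median gene, and the smallest adjusted p was 0.064. At an unadjusted p under 0.05, 11 members differed there, 3 higher and 8 lower, or 10.8% against a background of 15.5% (7.73% lower). Among genes above the median gene that background was 24.3% (11.8% lower). The members' shares thus lay near or below the background. In sorted but bulk RNA, fewer cells of a type and less RNA per cell cannot be told apart.

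The intervals describe precision among these arrays only, since their variation may be technical. They set no bound on a difference between genotypes, and the comparison without Dnmt3b-KO replicate 3 was chosen with earlier results known. Without Dnmt3b-KO replicate 3, the 95% interval of the difference lay within 0.5 log2 units either side of 0 for 99 of the 102 genes, the exceptions being Ndufa2, Cox6b2 and Cox7b2. Over all genes that share was 89.9%, and over genes above the median gene 85.5%. With all 6 arrays it held for 73 members, against a background of 71.4%, or 53.8% of genes above the median gene. The median difference of the members was -0.055 over 6 arrays and -0.025 without Dnmt3b-KO replicate 3, beside -0.004 and -0.010 over all genes and -0.05 and -0.005 over genes above the median gene. Over 6 arrays, 36 members had differences above 0 and 66 below, where genes above the median gene split into 5961 and 9110 and all genes into 14705 and 15437. Without Dnmt3b-KO replicate 3 the split was 39 and 63, where genes above the median gene split into 7352 and 7719 and all genes into 13947 and 16195. The groups did not overlap for 21 members over 6 arrays, 3 higher and 18 lower. The background was 14.9% of all genes (2012 higher and 2474 lower) and 18.8% of genes above the median gene (1089 and 1749). Without Dnmt3b-KO replicate 3 the groups did not overlap for 31 members, 9 higher and 22 lower. That background was 32.5% (4549 higher and 5240 lower) and 41.2% (3175 and 3034).

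**Figure D1:**
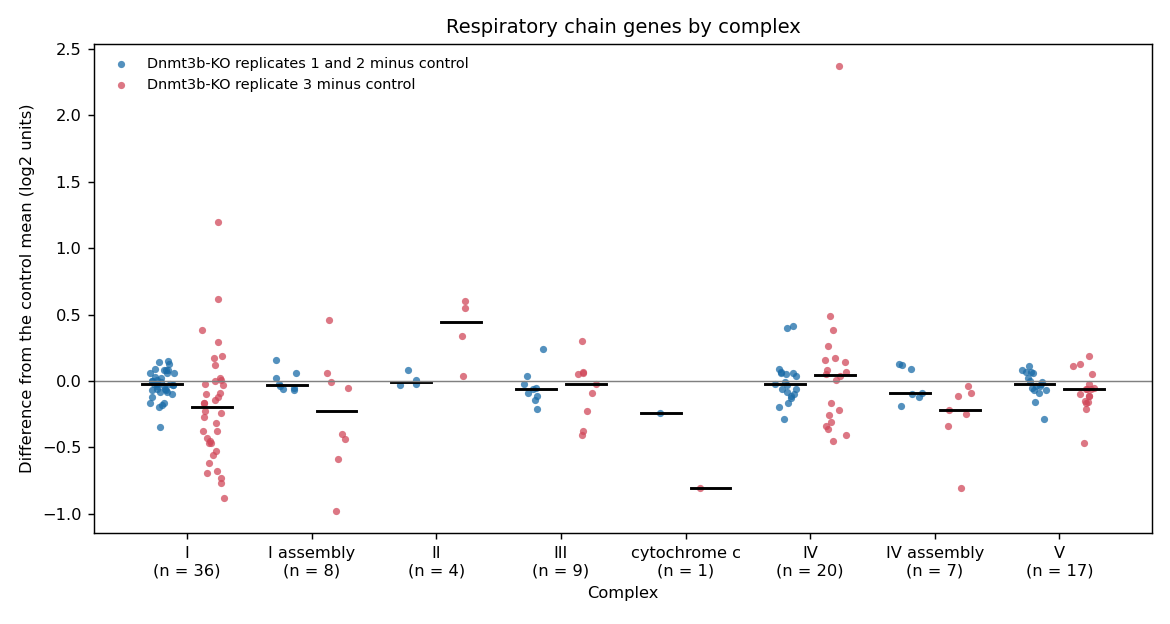
Difference from the control mean (vertical axis, log2 units) for each of the 102 genes, by complex (horizontal axis, with the number of genes). Blue points are the mean of Dnmt3b-KO replicates 1 and 2, red points Dnmt3b-KO replicate 3 alone, and black bars medians; the blue points lie between -0.35 and 0.41, while the red points spread further, with complex II at a median of 0.44 and Cycs at -0.81.

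Among the 36 complex I subunit genes, the median difference was -0.089 over 6 arrays and -0.021 without Dnmt3b-KO replicate 3, and 0 passed. Ndufa2, an accessory subunit, measured 8.68, 8.89 and 8.81 in Dnmt3b-KO, against 9.02, 9.21 and 9.17 in control. All 3 Dnmt3b-KO values lay below every control value. Its difference was -0.35 ± 0.09 (SE) without Dnmt3b-KO replicate 3 (limma, adjusted p = 0.14) and -0.34 ± 0.08 with it (adjusted p = 0.65). Ndufa12, also an accessory subunit and named after its values were seen, measured 9.95, 10.00 and 9.91 in Dnmt3b-KO, against 10.08, 10.15 and 10.19 in control, again without overlap. Its difference without Dnmt3b-KO replicate 3 was -0.17 ± 0.06 (limma, adjusted p = 0.26). Ndufs6, a zinc-binding accessory subunit, measured 10.13, 10.26 and 9.62 in Dnmt3b-KO, against 10.29, 10.54 and 10.35 in control. These groups did not overlap either, with replicate 3 the lowest. Ndufa9 measured 10.85 and 10.86 on Dnmt3b-KO replicates 1 and 2 and 11.41 on replicate 3, against 10.97 to 11.11 in control, so that replicate 3 lay on the other side of control from replicates 1 and 2.

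The core subunits of complex I, which carry the flavin and the iron-sulphur clusters, lay close to control. Ndufv1, which binds the flavin that takes electrons from NADH, measured 8.78, 8.80 and 8.82 in Dnmt3b-KO, against 8.68, 8.86 and 8.90 in control, and the groups overlapped. Ndufs7, which holds the last iron-sulphur cluster before ubiquinone, measured 10.77, 10.81 and 10.74, against 10.79, 10.87 and 11.07 in control. Ndufs3, a core subunit of the ubiquinone-reducing module, measured 8.89, 8.85 and 8.92 in Dnmt3b-KO, against 8.74, 8.81 and 8.69 in control. Its Dnmt3b-KO values all lay above control, with a difference of 0.13 ± 0.06 without replicate 3 (limma, adjusted p = 0.40). Ndufb11, an accessory subunit of the membrane arm, had the highest difference of complex I without replicate 3, at 0.15 ± 0.10, measuring 9.08, 9.14 and 8.49 in Dnmt3b-KO, against 9.16, 8.83 and 8.90 in control. Across all 36 genes the differences without Dnmt3b-KO replicate 3 ran from -0.35 to 0.15.

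Complex I assembly factors help build the complex and leave it when it is finished. Without Dnmt3b-KO replicate 3, the 8 of them differed from control by -0.07 to 0.16, and 0 passed. Ndufaf3, which acts on the early ubiquinone module, stood at the upper end. It measured 8.10 and 8.04 on Dnmt3b-KO replicates 1 and 2 and 6.93 on replicate 3, against 7.80, 8.06 and 7.90 in control. Replicate 3 was thus the lowest array by a wide gap, while the other 5 overlapped. Ndufaf8 and Ndufaf7 also stood apart on replicate 3, at -0.65 and 0.50 relative to replicates 1 and 2. Without replicate 3, Ndufaf1, Ndufaf2, Ndufaf4 and Ndufaf5 differed from control by -0.05, -0.07, -0.06 and 0.02.

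The 4 genes of complex II differed from control by -0.03 to 0.08 without Dnmt3b-KO replicate 3, and their 95% intervals all lay within 0.25 log2 units either side of 0. Sdha, the flavoprotein that oxidizes succinate, measured 10.98, 11.08 and 11.09 in Dnmt3b-KO, against 11.06, 11.14 and 10.94 in control, with full overlap. Sdhb, the iron-sulphur subunit, measured 9.67 and 9.65 on Dnmt3b-KO replicates 1 and 2 and 10.24 on replicate 3, against 9.55, 9.73 and 9.80 in control. The membrane anchor Sdhc measured 9.19 and 9.15 on replicates 1 and 2 and 9.76 on replicate 3, against 9.14, 9.20 and 9.14 in control. The other anchor, Sdhd, measured 12.03, 11.96 and 12.26, against 11.88, 11.99 and 11.89 in control. For Sdhb and Sdhc, replicate 3 alone lay above every control, and for Sdhd both replicates 1 and 3 did.

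In complex III, the median difference was -0.064 over 6 arrays and -0.063 without Dnmt3b-KO replicate 3, and 0 of 9 genes passed. Cyc1, cytochrome c1, which hands electrons to cytochrome c, measured 9.19, 9.28 and 9.21 in Dnmt3b-KO, against 9.39, 9.56 and 9.39 in control. The groups did not overlap, and all 3 Dnmt3b-KO arrays lay close together. The difference was -0.22 ± 0.07 over 6 arrays (limma, adjusted p = 0.72) and -0.21 ± 0.08 without replicate 3 (adjusted p = 0.27). Uqcrc1, a core protein, measured 12.43, 12.49 and 12.22 in Dnmt3b-KO, against 12.62, 12.66 and 12.52 in control, also without overlap. Uqcrfs1, the Rieske iron-sulphur protein, differed the other way. It measured 8.87, 8.93 and 8.72 in Dnmt3b-KO, against 8.70, 8.73 and 8.56 in control, so that replicates 1 and 2 lay above control and replicate 3 within it. Its difference without replicate 3 was 0.24 ± 0.07 (limma, adjusted p = 0.18). Uqcrc2, the other core protein, and Uqcrb, a ubiquinone-binding subunit, differed by -0.11 and 0.04. On replicate 3 the small subunits Uqcrh, Uqcrq and Uqcr10 stood at -0.34, 0.31 and 0.14 relative to replicates 1 and 2.

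Cycs, the cytochrome c gene, measured 14.06, 14.06 and 13.50 in Dnmt3b-KO, against 14.17, 14.47 and 14.28 in control. All 3 Dnmt3b-KO arrays lay below every control, with replicate 3 the lowest. The difference was -0.43 ± 0.18 over 6 arrays (limma, adjusted p = 0.79) and -0.24 ± 0.09 without replicate 3 (adjusted p = 0.29). A second row for Cycs, not used in the fit, measured 11.64, 11.75 and 11.35 in Dnmt3b-KO, against 11.76, 12.01 and 11.85 in control. There too every Dnmt3b-KO value was below every control value.

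**Figure D2:**
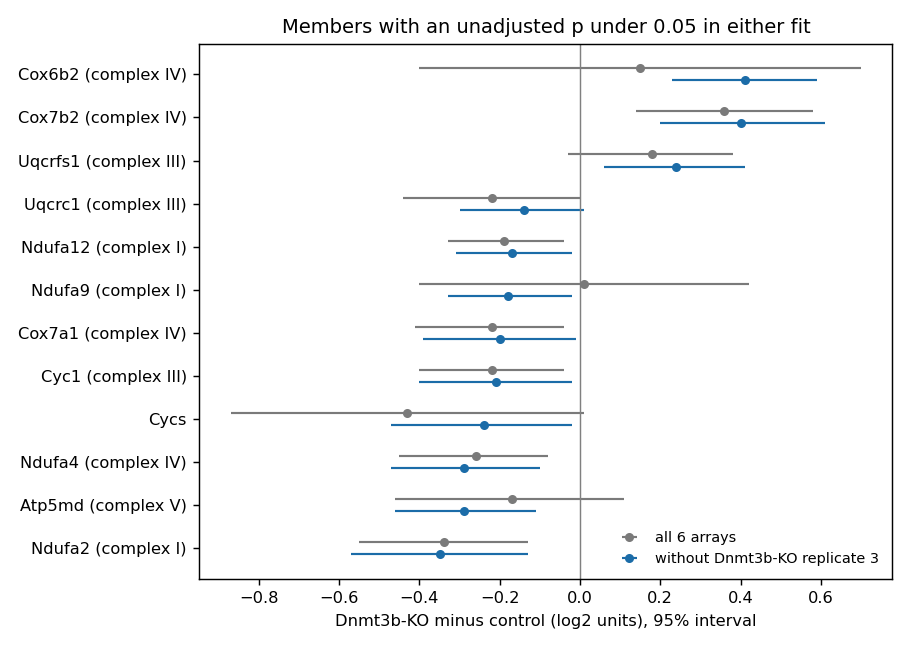
Dnmt3b-KO minus control (horizontal axis, log2 units) with 95% limma intervals for the 12 members with an unadjusted p under 0.05 in either fit. Grey is all 6 arrays and blue leaves out Dnmt3b-KO replicate 3; Ndufa2 lies lowest at -0.34 and -0.35 apart from Cycs at -0.43 over 6 arrays, Cox6b2 and Cox7b2 lie highest at 0.41 and 0.40 in blue, and none passed after adjustment.

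Among the 20 complex IV subunit genes the median difference was 0.004 over 6 arrays and -0.027 without Dnmt3b-KO replicate 3, and 0 passed. Cox4i1, a regulatory subunit present in most tissues, measured 7.42, 7.40 and 7.40 in Dnmt3b-KO, against 7.31, 7.37 and 7.41 in control. Cox5a, another nuclear subunit, measured 10.25, 10.17 and 10.37, against 10.21, 10.34 and 10.33 in control. Both overlapped, with differences without replicate 3 of 0.05 and -0.08. Ndufa4 measured 12.14, 12.28 and 12.28 in Dnmt3b-KO, against 12.42, 12.59 and 12.49 in control. It did not overlap, and its difference was -0.29 ± 0.08 without replicate 3 (limma, adjusted p = 0.14) and -0.26 ± 0.07 with it (adjusted p = 0.66). Without replicate 3, Cox7c, a small structural subunit, differed by 0.07. Cox5b, another nuclear subunit, was 0.28 higher on replicate 3 than on replicates 1 and 2.

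Several complex IV subunits have isoforms restricted to certain tissues. Cox6b2, found mainly in testis, measured 7.50 and 7.41 on Dnmt3b-KO replicates 1 and 2 and 6.69 on replicate 3, against 7.14, 7.04 and 6.95 in control. Replicates 1 and 2 lay above every control and replicate 3 below every control. The difference without replicate 3 was 0.41 ± 0.07 (limma, adjusted p = 0.064), and over 6 arrays 0.15 ± 0.22 (adjusted p = 0.88). When genes below the median gene were left out before adjustment, which tests fewer genes, Cox6b2 passed without replicate 3 (limma, adjusted p = 0.029). Its somatic paralog Cox6b1 measured 13.34, 13.29 and 13.14 in Dnmt3b-KO, against 13.27, 13.42 and 13.66 in control, with a difference of -0.13 ± 0.12 without replicate 3.

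Cox7b2, the testis paralog of Cox7b, measured 4.73, 4.64 and 4.54 in Dnmt3b-KO, against 4.38, 4.32 and 4.14 in control. All 3 Dnmt3b-KO values lay above control, although all 6 values lie below the median gene. The difference was 0.40 ± 0.09 without replicate 3 (limma, adjusted p = 0.092) and 0.36 ± 0.09 with it (adjusted p = 0.65). Cox7b itself measured 11.68, 11.64 and 11.40 in Dnmt3b-KO, against 11.53, 11.58 and 11.59 in control. Cox8c, another testis isoform, overlapped between groups, at 4.46, 4.42 and 4.85 in Dnmt3b-KO and 4.43, 4.45 and 4.51 in control.

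The isoforms of heart and skeletal muscle are Cox6a2, Cox7a1 and Cox8b. Cox6a2 measured 4.25 and 4.38 on Dnmt3b-KO replicates 1 and 2 and 6.78 on replicate 3, against 4.35, 4.38 and 4.51 in control. Its signal stood out on replicate 3 alone, while the other 5 arrays lay below the median gene. Cox7a1 measured 5.12, 5.31 and 5.16 in Dnmt3b-KO, against 5.46, 5.46 and 5.34 in control, without overlap. Their ubiquitous paralogs Cox6a1, Cox7a2 and Cox8a differed from control by -0.06, -0.01 and -0.17 without replicate 3, and the related Cox7a2l, a respiratory supercomplex factor, by 0.06. Cox8b lay between 3.37 and 3.49 over all 6 arrays, and Ndufa4l2, a hypoxia-induced paralog of Ndufa4, between 3.17 and 3.41, both below the median gene. Cox4i2, the paralog of Cox4i1 known for lung and for low oxygen, measured 5.31, 5.29 and 5.42 in Dnmt3b-KO, against 5.33, 5.17 and 5.27 in control.

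The 7 complex IV assembly factors differed from control by -0.19 to 0.13 without Dnmt3b-KO replicate 3, and 0 passed. Cox11, which serves copper insertion, measured 7.97, 8.03 and 8.11 in Dnmt3b-KO, against 8.25, 8.30 and 8.04 in control. Cox15, which makes haem A for the catalytic centre together with Cox10, measured 10.32 and 10.25 on Dnmt3b-KO replicates 1 and 2 and 9.38 on replicate 3, against 10.22, 10.19 and 10.17 in control. Replicate 3 was again the lowest array, and the other Dnmt3b-KO values lay slightly above control. Cox17 and Cox19, copper-handling factors, and Cox18 and Cox20, which help insert the Cox2 protein, differed by -0.12, -0.10, 0.13 and 0.12 without replicate 3.

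The 17 genes of complex V differed from control by -0.29 to 0.11 without Dnmt3b-KO replicate 3, with a median of -0.021, and 0 passed. The catalytic head subunit beta, Atp5b, measured 13.72, 13.77 and 13.77 in Dnmt3b-KO, against 13.79, 13.87 and 13.82 in control. The values did not overlap, with a difference of -0.09 ± 0.06 without replicate 3 (limma, adjusted p = 0.56). Its partner alpha, Atp5a1, measured 14.84, 14.92 and 14.99, against 14.83, 14.96 and 14.79 in control, with overlap. Atp5md, a small membrane subunit that helps ATP synthase pair up, measured 11.56 and 11.72 on Dnmt3b-KO replicates 1 and 2 and 11.97 on replicate 3, against 11.85, 11.97 and 11.94 in control. Only replicates 1 and 2 lay below control, with a difference of -0.29 ± 0.07 without replicate 3 (limma, adjusted p = 0.14). The 3 genes for subunit c, which forms the rotor ring, are Atp5g1, Atp5g2 and Atp5g3. Without replicate 3 their differences were -0.04, 0.00 and 0.07, and each 95% interval held 0. Atp5k, Atp5e, Atp5pb, Atp5mpl and Atp5o, further subunits, differed by -0.16, 0.11, 0.08, -0.04 and -0.07, and on replicate 3 Atp5mpl stood at -0.44 relative to replicates 1 and 2.

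**Figure D3:**
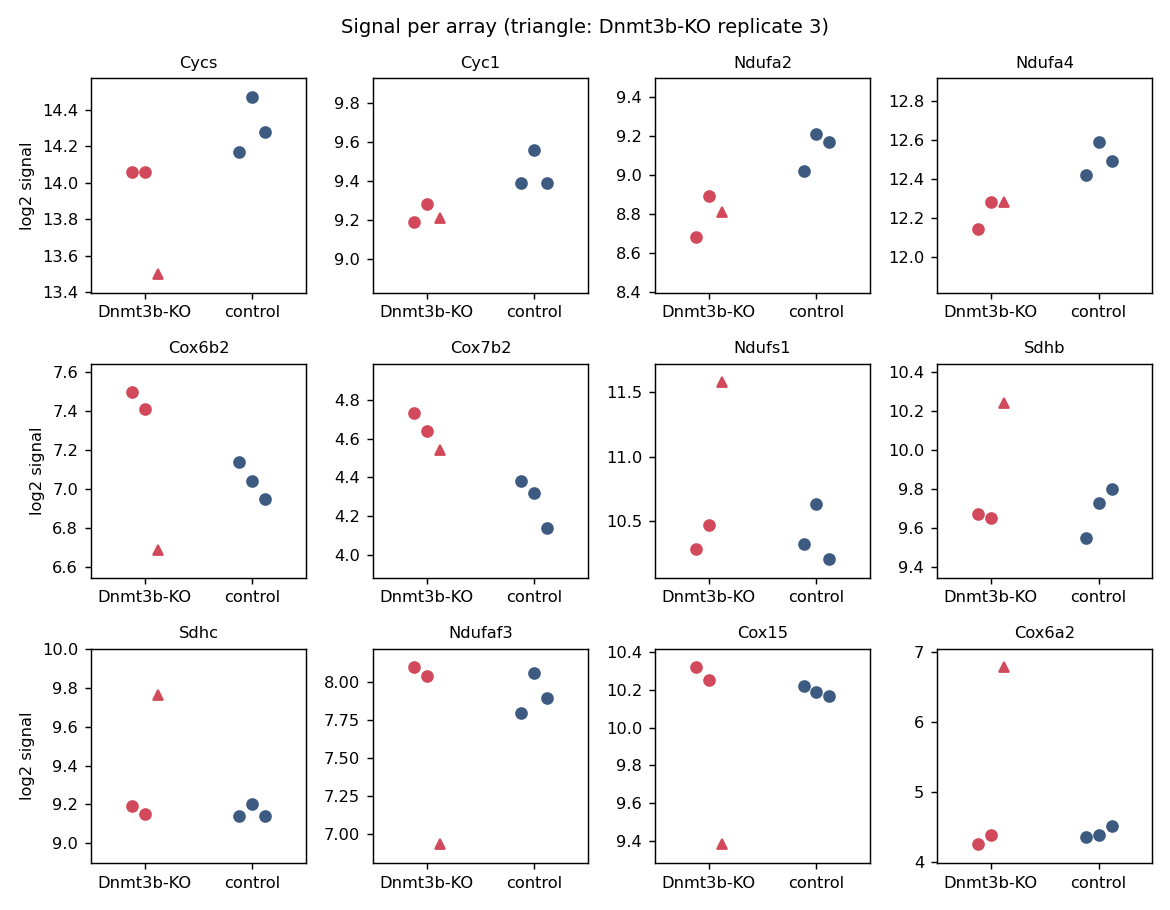
Log2 signal (vertical axes, spans differ between panels) of 12 genes on the 3 Dnmt3b-KO arrays (red, triangle for replicate 3) and the 3 control arrays (blue). Cycs, Cyc1, Ndufa2 and Ndufa4 lie below control on all 3 Dnmt3b-KO arrays, whereas Ndufs1, Sdhb, Sdhc, Ndufaf3, Cox15 and Cox6a2 stand apart on replicate 3 alone.

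Dnmt3b-KO replicate 3 was next set beside replicates 1 and 2; a single array allows no test. Relative to the mean of replicates 1 and 2, 6 members were higher on it by more than 0.5 log2 units (5.88% against a background of 9.03%) and 15 lower (14.7% against 11.9%). Among genes above the median gene the background was 13.1% higher and 23.3% lower. By more than 1, 2 members were higher (background 4.03%, or 6.5% of genes above the median gene) and 1 lower (background 2.94%, or 5.86%). The median absolute difference was 0.177 for members, 0.183 for all genes and 0.348 for genes above the median gene. Replicates 1 and 2 differed from each other by at most 0.25 in any member, with a median of 0.055, while 1.1% of all genes and 1.13% of those above the median gene differed by more than 0.5.

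On this array complex II, with 4 genes, stood higher than on replicates 1 and 2, and the single gene Cycs stood lower. Complex II had a median difference of 0.421 from replicates 1 and 2, with all 4 genes higher, or 3 of 4 when each array was centred on its median. Of the complex I subunit genes, 25 of 36 were lower, with a median of -0.128. Genes above the median gene, where all 36 lie, had a median of -0.149 on this array, with 9604 of 15071 lower, so complex I lay near that background. With arrays centred on their median 31 were lower, and with a further quantile step 20. Ndufs1, the large iron-sulphur subunit of the NADH module, went against this. It measured 11.58 on replicate 3, with 10.28 and 10.47 on replicates 1 and 2, against 10.32, 10.63 and 10.20 in control. Ndufc2 and Ndufa9, accessory subunits of the membrane and ubiquinone regions, were also higher on replicate 3, by 0.66 and 0.56. Ndufa8 and Ndufv3, other accessory subunits, were lower on it by more than 0.8, with differences of -0.87 and -0.81. Complexes III, IV and V had medians of -0.022, -0.003 and -0.048, and these small values changed sign with the scaling. Cycs differed by -0.56 in the used row and by -0.34 in the other.

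**Figure D4:**
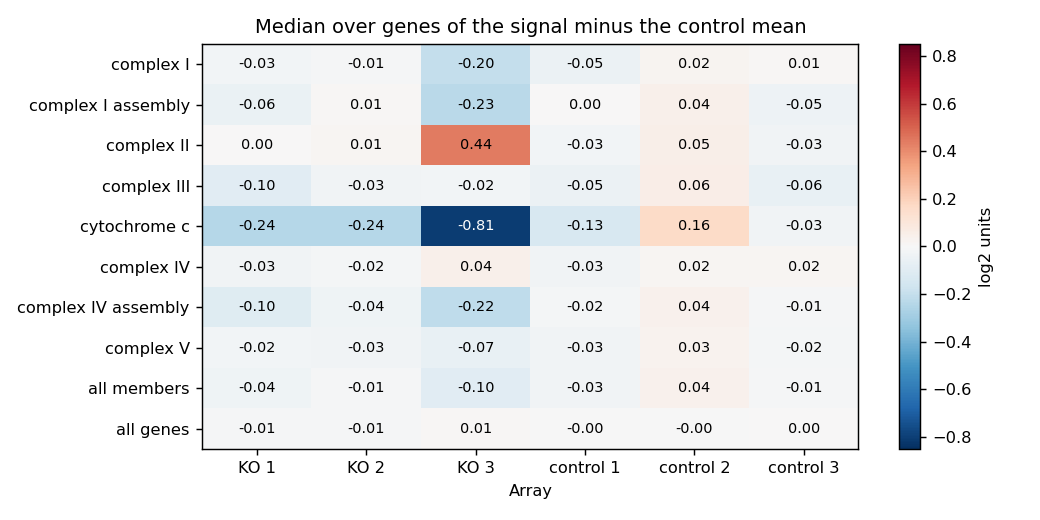
Median over the genes of each complex of the signal minus the control mean (colour and printed value, log2 units), with complexes down the page and the 6 arrays across. Dnmt3b-KO replicate 3 is 0.44 for complex II and -0.81 for cytochrome c, whereas on Dnmt3b-KO replicates 1 and 2 the complexes lie between -0.102 and 0.015 and cytochrome c at -0.24.

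Other mitochondrial gene lists also held 0 genes past the threshold. Of 16 measured genes of the tricarboxylic acid cycle and pyruvate dehydrogenase, 0 passed in either fit (limma). Their median difference was -0.057 over 6 arrays and -0.046 without Dnmt3b-KO replicate 3. On replicate 3, 5 of the 16 were higher than on replicates 1 and 2 and 11 lower, with a median of -0.105. By more than 0.5, 4 were higher, Dld by 0.86, Idh3b by 0.75, Fh1 by 0.62 and Dlat by 0.52. Ogdh and Pdha1 were lower by more than 0.5, with differences of -0.62 and -0.55. The background past 0.5 was 9.03% higher and 11.9% lower over all genes. Among genes above the median gene, where all 16 lie, it was 13.1% and 23.3%. Of 15 regulators of mitochondrial biogenesis 0 passed. Nrf1 measured 8.09, 8.20 and 7.73 in Dnmt3b-KO, against 8.07, 8.19 and 7.93 in control, and Gabpa 10.40, 10.41 and 10.19, against 10.45, 10.53 and 10.32. Polg2, the accessory subunit of the mitochondrial DNA polymerase, measured 8.04 and 8.30 on Dnmt3b-KO replicates 1 and 2 and 6.99 on replicate 3, against 7.71, 7.67 and 7.65 in control. Its difference without replicate 3 was 0.49 (limma, adjusted p = 0.054), and replicate 3 lay on the other side of control.

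Of 75 mitochondrial ribosomal protein genes, whose products translate the mitochondrial respiratory subunits, 0 passed in either fit (limma). Their median difference was -0.077 over 6 arrays and -0.073 without Dnmt3b-KO replicate 3. Without it 23 were above 0 and 52 below, where genes above the median gene split into 7352 and 7719 and all genes into 13947 and 16195. At an unadjusted p under 0.05 without replicate 3, 14 of the 75 were lower and 0 higher, where the background of lower genes was 7.73% of all genes and 11.8% of genes above the median gene. The groups did not overlap there for 28 lower and 6 higher genes, against a background of 32.5%, or 41.2% above the median gene, in both directions together. By direction that background was 5240 lower and 4549 higher of 30142 genes. Among the 15071 genes above the median gene it was 3034 lower and 3175 higher. Mrpl49 had the smallest p, at 9.23, 9.36 and 9.02 in Dnmt3b-KO, against 9.63, 9.63 and 9.76 in control, with a difference of -0.38 without replicate 3 (limma, adjusted p = 0.072). Of 28 measured assembly factors named outside the rule, 0 passed. Without replicate 3 the groups did not overlap for 4 higher and 7 lower of them. The background in both directions together was again 32.5% of all genes and 41.2% of genes above the median gene. Cmc1, a complex IV assembly factor with the smallest p of this list without replicate 3, measured 8.71, 8.68 and 8.49 in Dnmt3b-KO, against 8.42, 8.45 and 8.47 in control, all 3 Dnmt3b-KO values above control, with a difference of 0.25 (limma, adjusted p = 0.091). Timmdc1, a complex I assembly factor, measured 8.88, 9.01 and 8.89 in Dnmt3b-KO, against 9.16, 9.30 and 9.16 in control, without overlap, and Pet100, a complex IV assembly factor, 6.75, 6.85 and 6.61, against 7.10, 7.03 and 7.08.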

How the data were processed

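Expression was measured on 6 arrays, 3 Dnmt3b-KO and 3 control. The deposited values are log2 signals, which the authors normalized by RMA according to the submitters' processing notes. They reach 19.59, above the scanner's log2 range of 16, so the scale was altered in a way the sources do not describe, and differences are not converted to folds. Of 72688 rows, 30604 carry exactly 1 symbol. Symbols of 827 rows were updated by gene identifier from RefSeq (GRCm38.p6), and each of 30142 genes was represented by its highest-mean row. Differences between Dnmt3b-KO and control were fitted with lmFit and eBayes (limma 3.58.1, R 4.3.3) and adjusted by Benjamini-Hochberg over all genes, with a threshold of 0.05. The fit was tested on simulated data with the spread found without Dnmt3b-KO replicate 3. That test therefore did not cover an array that stands apart. The number of arrays limits precision.

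The members, the gene lists and the comparison without Dnmt3b-KO replicate 3 were chosen with earlier results of these data known. Named members are, in each complex, up to 3 in each direction with the largest difference without replicate 3 and up to 2 in each direction with the largest deviation of replicate 3, among members above the median gene, together with core subunits, tissue isoforms with their paralogs, and the subunit c genes. This rule gave 67 members; Ndufa12, and the genes named from other lists, were picked after their values were seen. Alternatives covered the empirical Bayes prior, array weights, normalization, dim genes, rows and symbols, repeated values, the threshold, a replicate block and arrays left out. Figures were drawn with matplotlib 3.10.9.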

Additional observations from a re-analysis of the deposited data

How the results depend on the processing

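Over 6 arrays the count of member genes past the threshold was 0 under every alternative run, and the count over all genes was 0 except with array weights (103), with 0 to 509 when an array was left out, the 509 without Dnmt3b-KO replicate 3. The members' median difference of -0.055 became -0.014 with array weights, which gave Dnmt3b-KO replicate 3 a weight of 0.11. Without Dnmt3b-KO replicate 3, the 0 member genes became 1 (Cox6b2) when genes below the median gene were left out and 2 (both higher) at an adjusted p under 0.1. There the 509 genes became 996 with the dim genes left out, 1148 at an adjusted p under 0.1, 0 without empirical Bayes and 96 with the replicate number as a block, and 13 to 262 with 1 more array left out, where a Dnmt3b-KO array left alone is taken to vary as much as control arrays do. The block gave 0 member genes in both fits. The labels do not say that replicate numbers pair samples, so the numbers were not taken as pairs. Deviations of same-numbered arrays from their group means correlated at 0.13, 0.03 and 0.11, and those of differently numbered arrays at -0.12 to 0.09. These values cannot decide pairing, because deviations within a group depend on each other. The median of Dnmt3b-KO replicate 3 minus replicates 1 and 2 over members, -0.060, became 0.001 after repeated quantile normalization, -0.151 with arrays centred, and 0.025 with arrays centred on genes above the median gene, a scaling added after seeing the data; over all genes the same median was 0.021, and -0.043, -0.07 and 0.106 under those scalings. Leaving out dim genes tests fewer genes; for the other settings the cause was not tested. Among named genes, no value with a 95% interval away from 0 changed sign.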

Other observations

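Values outside the comparisons concern the mitochondrial ribosome's own RNA and further rows of member genes. The 12S ribosomal RNA row of mitochondrial DNA, mt-Rnr1, measured 19.32, 19.22 and 19.16 in Dnmt3b-KO, against 19.45, 19.34 and 19.39 in control; this row was picked after its values were seen. A further Atp5l row measured 9.16, 9.09 and 8.80 in Dnmt3b-KO, against 8.95, 8.92 and 8.92 in control, so it and the used row, with differences of 0.20 and 0.07 without Dnmt3b-KO replicate 3, had the same sign. A further Atp5d row lay below the median gene on all 6 arrays.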
